A study of Mus musculus with 15 samples.

Results

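The proteasome genes of mouse CD8+ T cells were taken as every row of 2 deposited FPKM tables whose symbol starts with Psma, Psmb, Psmc, Psmd, Psme or Psmg followed by a digit. This matched 46 of the 11262 genes of the first table and the same 46 of the 11211 genes of the second. They comprise 14 constitutive subunits of the 20S core (7 alpha, 7 beta), 17 subunits of the 19S regulatory particle (9 of the base, 8 of the lid), 5 genes of the immunoproteasome class (Psmb8, Psmb9, Psmb10, Psme1, Psme2), the activators Psme3 and Psme4, and 7 assembly factors. One further match, Psmc3ip, carries a proteasome-like symbol but encodes a partner of the recombinases of meiotic chromosome pairing and is no subunit. Psma8 and Psmb11, whose products serve testis and thymus, had no row in either table.

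All cells came from P14 mice, whose transgenic TCR recognises the LCMV peptide gp33-41. Naïve cells were sorted ex vivo from the lymph nodes of female mice as TCRβ+ CD8+ CD62L high CD44 low cells. For the TCR activated group, lymph node cells spent 24 h in medium that held IL-12 at 2 ng/ml, IL-2 at 20 ng/ml and the peptide at 100 ng/ml. The PI3Kdi group differed by the addition of IC87114 at 10 µM, which inhibits the p110δ catalytic subunit of PI3K, and both were sorted as CD8+ cells. Each of the 3 replicates of these 3 groups pooled cells of 3 mice, split between the groups. The second table holds cytotoxic T lymphocytes (CTL) that were activated for 48 h, grown in 20 ng/ml IL-2, washed on day 6, and then given IL-2 or none for 24 h, with 3 replicates each. These groups follow the sample titles, as the treatment labels of replicates 2 and 3 with IL-2 give other interleukins. FPKM is a read count scaled to exon length and to library size, so levels per length can be set against each other between genes of a library. The total of reads in each library is not given in the sources used here.

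The proteasome degrades proteins tagged with ubiquitin and is the main source of the peptides that MHC class I presents. Its 20S barrel is a stack of alpha and beta rings, and the proteolytic sites lie on the beta subunits β1, β2 and β5. The 19S particle caps the barrel, recognises and unfolds substrates through its ring of ATPases, and removes ubiquitin through its lid. Lymphoid cells also make the interferon-inducible subunits β1i, β2i and β5i, which take the places of β1, β2 and β5 in newly assembled immunoproteasomes, and the PA28 activator of PA28α and PA28β, which opens the barrel without ubiquitin. As each ring position is filled once per ring, the subunits of a complex are needed in fixed numbers.

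Cd8a, Cd8b1, Cd3e and Cd3d were present in every library, with a summed level of 2495 to 2729 FPKM in naïve cells, 552 to 608 after activation and 668 to 784 with PI3Kdi. Of the 5 B cell markers checked, 4 had a row in the first table, with a sum of 20.9 to 26.3 FPKM in naïve cells, mostly Cd79b, and of 4.63 to 7.12 FPKM after activation. Pecam1, an endothelial gene that naïve T cells also express, had 55.6 to 66.0 FPKM in naïve and 2.25 to 3.49 FPKM in TCR activated cells. In CTL the CD8 and CD3 genes summed to 703 to 757 FPKM with IL-2 and to 1278 to 1421 FPKM without, and Cd79b had 2.74 to 6.30 and 10.8 to 20.6 FPKM. In the same libraries 3 of 7 myeloid and dendritic markers had a row, with a sum of 5.57 to 9.67 FPKM with IL-2 and 13.7 to 21.7 without. No marker with a row was at 0 in all libraries of a group, and the part of other cells in the results was not tested. In these bulk libraries, fewer cells of one type and less RNA per cell cannot be told apart.

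The 45 genes other than Psmc3ip together summed to 3644 ± 309.7 FPKM (SD, n = 3) in the naïve group and to 6894 ± 718 FPKM in the TCR activated group. With PI3Kdi the sum was 6530.3 ± 236 FPKM. CTL held 6266 ± 78.9 FPKM with IL-2 and 3499 ± 109.5 FPKM without. In every TCR activated library the sum lay above that of every naïve library, and in every CTL library without IL-2 it lay below that of every CTL library with IL-2. As a share of all FPKM in a table, the sums ran from 0.755% to 0.835% in naïve cells and from 1.31% to 1.54% in TCR activated cells. With PI3Kdi they ran from 1.41% to 1.49%, within the range of the TCR activated libraries. In CTL they ran from 1.23% to 1.32% with IL-2 and from 0.761% to 0.800% without. The tables were normalised separately, so no test was made across them. By mean level, Psme1 ranked highest of the 46 in naïve cells, Psma7 in TCR activated cells and Psmb8 in both CTL groups. Psmb8 ranked 2 in naïve and 26 in TCR activated cells, while Psme3 ranked 17 and 2.

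**Figure D1:**
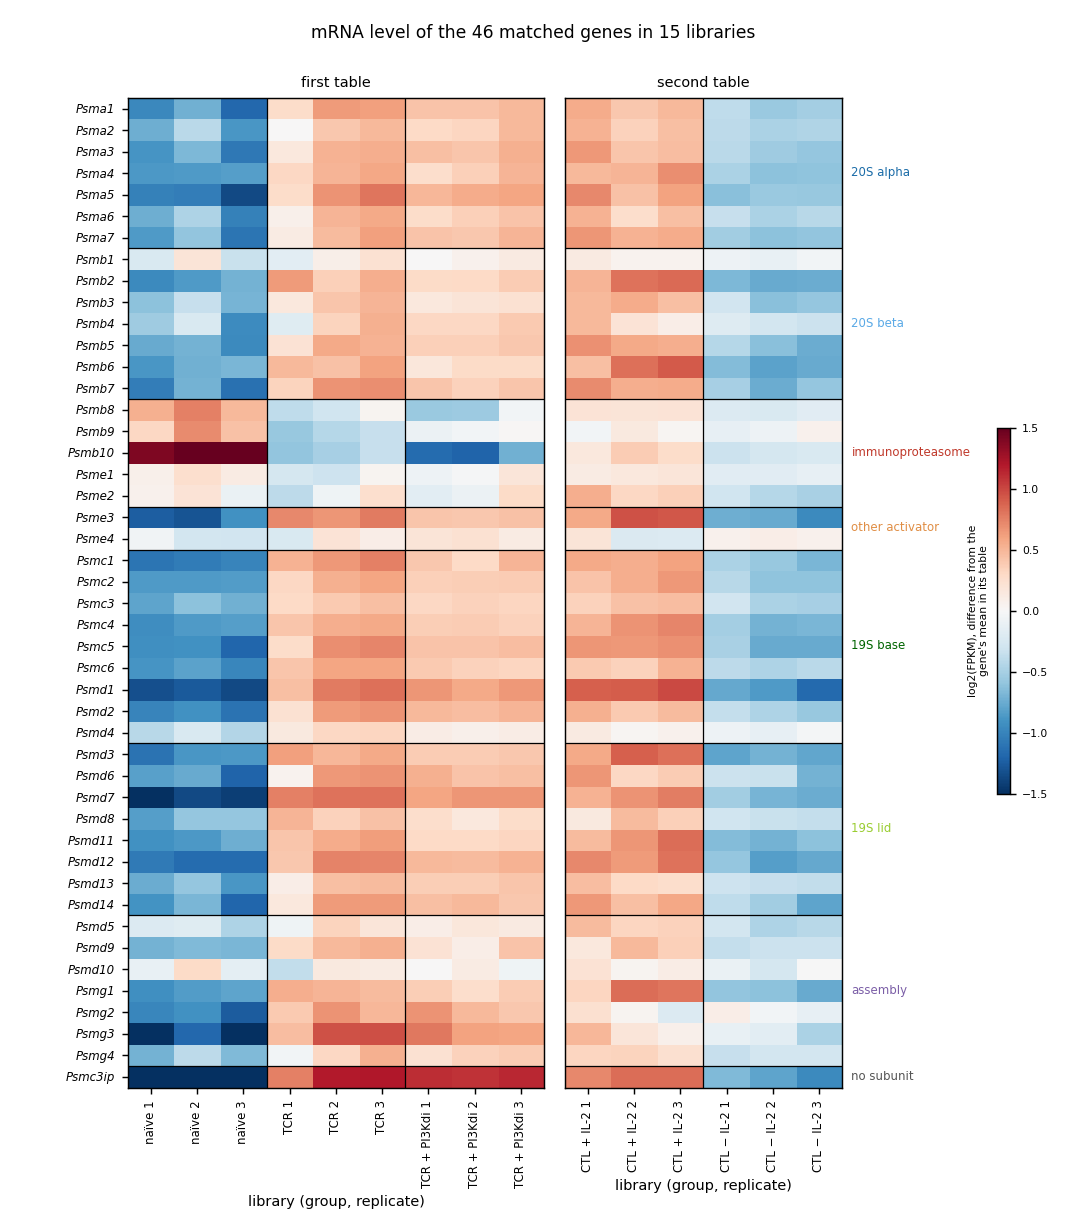
Level of each of the 46 matched genes (rows, grouped by class) in each of the 15 libraries (columns), as log2(FPKM) minus the gene's mean over the libraries of its own table. The 20S core and 19S rows were low in the 3 naïve libraries and high after activation, the Psmb8, Psmb9 and Psmb10 rows ran the other way in the first table, and almost all rows were lower in the CTL libraries without IL-2. Colours end at 1.5 log2 units either side of the mean.

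The first comparison set cells after 24 h of culture with peptide, IL-2 and IL-12 against naïve cells. Culture, peptide, the 2 cytokines and the sort gate differ together between these groups, so their parts cannot be told apart. Against naïve cells, 38 of the 46 genes rose and 4 fell in the limma fit of log2(FPKM + 0.1) at an adjusted p under 0.05, where 40.9% of all genes tested rose and 39.8% fell. With a fold change above 2 or below 0.5 as a further limit, 32 rose and 1 fell, against 25.0% and 23.7% of all genes. The median log2 fold change of the 46 was 1.30, and that of all genes was 0.01. The rise was spread over the core and the regulatory particle: 30 of 31 genes of the 20S core and 19S passed the test upwards, with a median of 1.35 and a standard deviation between genes of 0.39, where the standard deviation over all genes was 1.89. The immunoproteasome class stood on the other side, with none of its 5 genes higher, 4 lower and a median of -0.81.

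The 7 alpha subunits, which form the outer rings and the gate of the barrel, all rose, by a median log2 fold change of 1.29. Psma5 (α5) rose most of them: it had 51.6, 50.8 and 40.5 FPKM in the 3 naïve libraries and 126, 165 and 181 FPKM in the 3 TCR activated libraries. The groups were far apart (log2 fold change 1.72, SE 0.13, adjusted p = 3.01e-07), although a named pseudogene, Psma5-ps, may share reads with it. Psma2 (α2) rose least, from 132, 166 and 119.9 to 221, 291 and 306 FPKM, again with no overlap (log2 fold change 0.97, SE 0.14, adjusted p = 6.73e-05), and was the only alpha gene under 2-fold. The other alpha genes lay between 1.12 (Psma6) and 1.46 (Psma1) on the log2 scale.

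Among the 7 constitutive beta subunits, which form the inner rings, 6 rose. Psmb7, which encodes the trypsin-like site β2, led with 65.03, 81.3 and 61.2 FPKM in naïve and 168, 212 and 216 FPKM in TCR activated libraries. Its groups did not overlap (log2 fold change 1.52, SE 0.12, adjusted p = 3.87e-07). Psmb1 (β6, a non-catalytic position) did not pass the test: its 139, 186 and 129 FPKM in naïve cells overlapped the 146, 173 and 191 FPKM after activation (log2 fold change 0.18, SE 0.14, adjusted p = 0.255). In naïve cells Psmb1 was the highest of the 14 core genes at 152 ± 30.7 FPKM (SD, n = 3), and after activation Psma7 was, at 296 ± 50.5 FPKM. The ratio of the highest to the lowest core gene was 3.18 in naïve and 2.61 in TCR activated cells. For Psmb5, Psmb6 and Psmb7 the annotation also names pseudogenes, which could take or lend reads.

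The 17 genes of the 19S particle all rose, 16 of them past 2-fold, with a median log2 fold change of 1.40. In the base, Psmd1, which encodes the large scaffold subunit Rpn2, rose most, from 31.9, 33.2 and 31.3 FPKM in naïve to 109, 136 and 141 FPKM in TCR activated libraries, with wide separation (log2 fold change 1.99, SE 0.10, adjusted p = 6.57e-09). Psmd4, the ubiquitin receptor Rpn10, rose least, with 91.2, 104 and 89.5 FPKM before and 135, 151 and 152 FPKM after (log2 fold change 0.62, SE 0.08, adjusted p = 2.78e-05). It was also the highest 19S gene in naïve cells, at 94.8 FPKM on average, and its groups did not overlap. The 6 ATPases Psmc1 to Psmc6, which form the ring that pulls substrates in, rose by 1.09 (Psmc3) to 1.69 (Psmc1) on the log2 scale.

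In the lid, Psmd7, the partner (Rpn8) of the deubiquitinating subunit, rose most of the 31 core and 19S genes. It had 41.6, 46.97 and 45.2 FPKM in naïve libraries and 203, 212 and 212 FPKM after activation (log2 fold change 2.23, SE 0.07, adjusted p = 3.28e-10), a fold change of 4.68. Psmd14, the deubiquitinase Rpn11 itself, went from 53.9, 62.5 and 44.1 to 113, 157 and 157 FPKM (log2 fold change 1.40, SE 0.15, adjusted p = 3.39e-06). Psmd13 (Rpn9) was the lowest riser of the lid, at 51.6, 58.1 and 47.2 FPKM in naïve and 93.03, 118 and 121 FPKM in TCR activated libraries (log2 fold change 1.08, SE 0.11, adjusted p = 3.17e-06). None of these 3 lid genes overlapped between the groups, but the share of all genes without overlap was not counted for this comparison. Summed FPKM of the 19S genes stood at 0.769 ± 0.0646 of the summed 20S core in naïve cells and at 0.937 ± 0.0403 in TCR activated cells (SD, n = 3), so all 3 activated libraries were above all 3 naïve ones on this ratio.

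**Figure D2:**
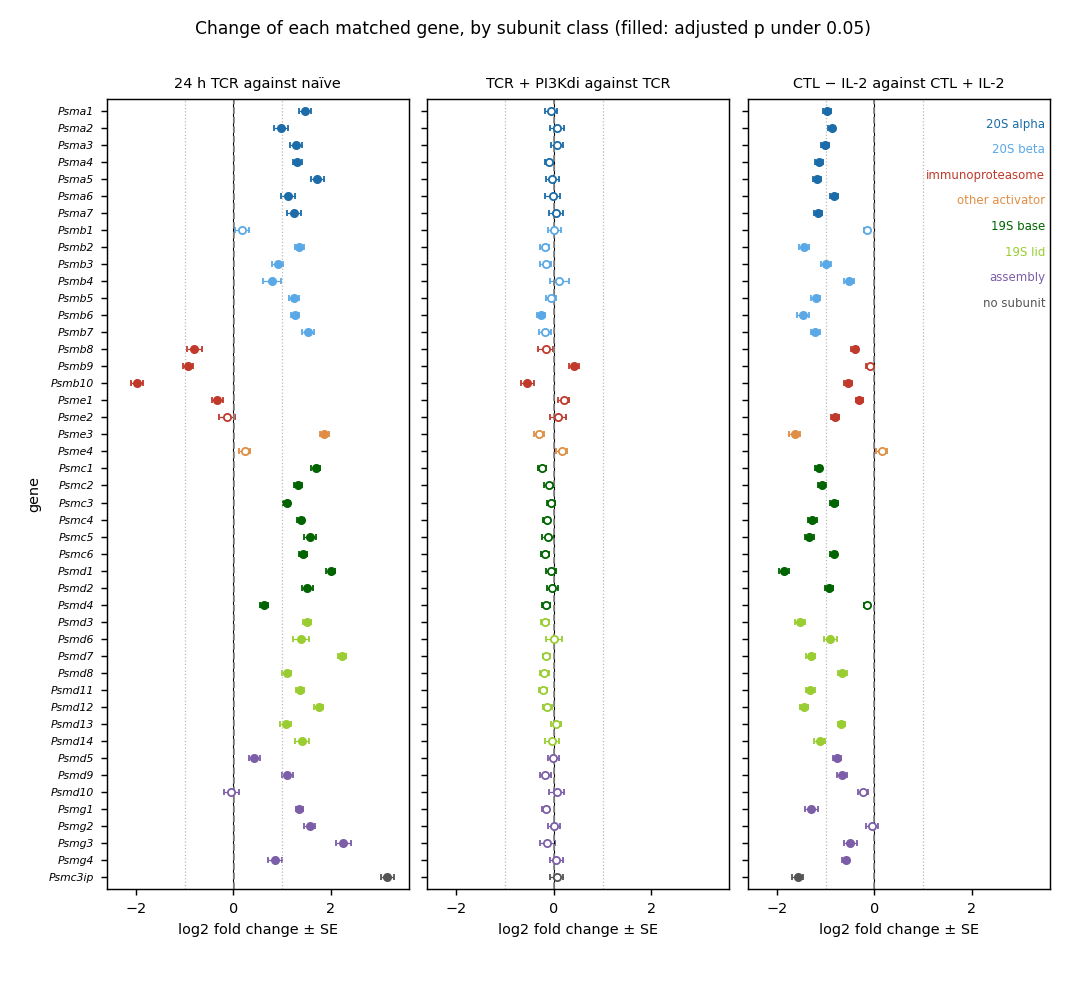
Log2 fold change of each matched gene with its standard error in 3 comparisons, coloured by class. Filled points passed an adjusted p of 0.05, the dashed line is the median of all genes and the dotted lines mark 2-fold. Core and 19S genes sit right of 0 on activation and left of 0 on IL-2 withdrawal, while nearly all points with PI3Kdi lie close to 0.

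Of the immunoproteasome class, all 3 catalytic genes and Psme1 fell. Psmb10 (β2i) fell most, from 111, 125 and 123 FPKM in naïve cells to 27.9, 29.9 and 33.2 FPKM after activation, a fold of 0.253 (log2 fold change -1.98, SE 0.13, adjusted p = 5.04e-08). Psmb9 (β1i) went from 118, 156 and 129 to 64.2, 70.7 and 74.8 FPKM (log2 fold change -0.93, SE 0.11, adjusted p = 7.36e-06). Psmb8 (β5i), the most abundant of the 3, went from 241, 279 and 232 to 127, 135 and 170.1 FPKM (log2 fold change -0.81, SE 0.15, adjusted p = 0.000443). For each of these genes every activated library was below every naïve library, though how many of all genes did the same was not counted. Psmb9 overlaps Tap1 on the opposite strand, Psmb8 and Psmb10 each have an antisense gene, and whether the counting used the strand that the library kit keeps is not given in the sources used here.

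The PA28 genes Psme1 and Psme2 had small fold changes. Psme1 (PA28α) had 330.1, 374 and 342 FPKM in naïve libraries and 262, 252 and 324 FPKM after activation (log2 fold change -0.33, SE 0.11, adjusted p = 0.0193). The call was lost without replicate 1 (adjusted p = 0.0693), without replicate 2 (0.246) and without TCR replicate 1 alone (0.0526). Psme2 (PA28β), at 239, 263 and 214 and 174, 219 and 273 FPKM, overlapped between the groups (log2 fold change -0.12, SE 0.16, adjusted p = 0.503), though it passed as lower when replicate 3 was left out (log2 fold change -0.36, adjusted p = 0.0356). Psme3 (PA28γ, the nuclear activator of the family) rose like the core genes, going from 74.2, 71.4 and 93.3 to 289, 277 and 300.3 FPKM with no overlap (log2 fold change 1.87, SE 0.10, adjusted p = 1.3e-08). The ratio of Psme3 to Psme1 in FPKM was 0.230 ± 0.0412 in naïve cells and 1.04 ± 0.0992 after activation (SD, n = 3). Psme4 (PA200) had 22.9, 19.7 and 19.4 FPKM and 20.3, 27.4 and 25.4 FPKM, which overlapped (log2 fold change 0.23, SE 0.12, adjusted p = 0.0898). Without replicate 1 it passed as higher, at a log2 fold change of 0.43.

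Of the 7 assembly factors, 6 rose, with a median log2 fold change of 1.11. The 4 Psmg chaperones, which build the alpha ring, all did, and Psmg3 (PAC3) rose most, from 12.1, 15.2 and 10.5 to 47.6, 67 and 67.4 FPKM (log2 fold change 2.26, SE 0.16, adjusted p = 1.18e-07). The 3 chaperones of the 19S base differed among themselves: Psmd9 (p27) rose (log2 fold change 1.11, SE 0.11, adjusted p = 2.27e-06), Psmd5 (S5b) rose by less (log2 fold change 0.43, SE 0.11, adjusted p = 0.0042), and Psmd10 (gankyrin) did not pass. Psmd10 had 14.6, 19.3 and 14.3 FPKM in naïve and 12.2, 17.5 and 17.2 FPKM in TCR activated libraries, and the groups overlapped (log2 fold change -0.04, SE 0.16, adjusted p = 0.804). Summed FPKM of the Psmg genes was 78.8 ± 7.28 before and 221 ± 22.6 after activation, while the 19S chaperones summed to 50.99 ± 5.08 and 69.96 ± 9.17 (SD, n = 3). Psmc3ip, the match that is no subunit, had the highest fold change of the 46, from 2.93, 3.30 and 2.77 to 22.4, 30.3 and 30.6 FPKM (log2 fold change 3.16, SE 0.13, adjusted p = 1.48e-09).

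TCR replicate 1 stood apart among the activated libraries. It was the lowest of the 3 in 39 of the 46 genes, by a median of 0.32 log2 units below the mean of the other 2, where it was lowest in 41.9% of all genes with a mean of at least 1 FPKM, by a median of 0.02. The deviation of this library from the other 2 had a Pearson r of 0.28 with transcript GC content over the 46 genes and of 0.33 over 8905 genes, a description with no test, and the part of base composition in the result was not tested. Leaving out this library alone, an alternative added after seeing the data, gave 39 higher and 3 lower genes, 35 and 1 of them past 2-fold. The full fit gave 38 and 4, and the shares of all genes called without this library are not given here. Naïve replicate 2 was the highest naïve library in 33 of the 46 genes.

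The switch between constitutive and inducible catalytic subunits was followed as the share of the inducible subunit in the FPKM of its pair, a ratio within one library that does not depend on how libraries were scaled. For the chymotrypsin-like site, Psmb8 made up 82.9%, 84.5% and 84.4% of the Psmb8 and Psmb5 sum in naïve cells and 56.8%, 52.1% and 58.7% in TCR activated cells. Psmb5, the constitutive partner, had 49.5, 51.1 and 42.9 FPKM in naïve and 96.8, 124 and 119.7 FPKM in TCR activated libraries (log2 fold change 1.24, SE 0.10, adjusted p = 5.73e-07). Thus Psmb8 remained the larger part of its pair in each of the 3 activated libraries. For the caspase-like site, Psmb9 made up 62.7 ± 2.63% of its pair with Psmb6 before and 26.8 ± 1.31% after activation (SD, n = 3). Psmb6 itself went from 73.2, 81.4 and 82.98 to 188, 181 and 204 FPKM (log2 fold change 1.27, SE 0.08, adjusted p = 5.89e-08). For the trypsin-like site, the share of Psmb10 in its pair with Psmb7 was 63.5 ± 3.12% before and 13.3 ± 0.954% after. The ranges of naïve and activated libraries did not overlap for any of the 3 pairs.

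In CTL kept in IL-2 the shares stood at 82.4 ± 0.761% for Psmb8, 57.8 ± 3.37% for Psmb9 and 46.6 ± 3.40% for Psmb10 (SD, n = 3). The inducible part of all 3 pairs summed was 72.0 ± 0.497% in naïve cells, 32.7 ± 1.36% after activation, 35.3 ± 2.75% with PI3Kdi, 65.5 ± 0.682% in CTL with IL-2 and 78.8 ± 1.51% in CTL without IL-2. These shares describe mRNA and not assembled particles.

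**Figure D3:**
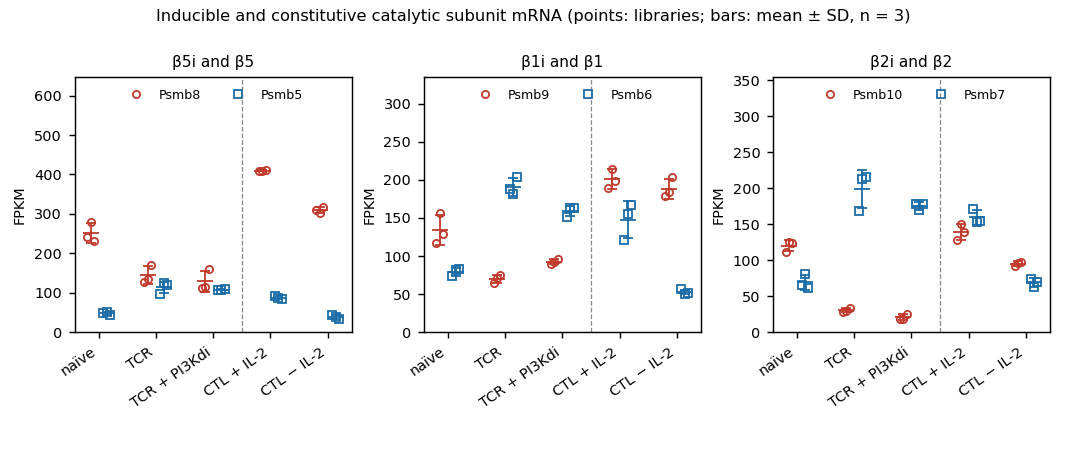
FPKM of the inducible (red circles) and constitutive (blue squares) catalytic subunit of each pair in each library, with the mean and SD of 3 libraries, and a dashed line between the 2 tables. In every pair the red values were lower and the blue values higher after activation than in naïve cells, and the blue values were lower without IL-2.

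Within the immunoproteasome class, 4 of the 5 genes lie close to another one. In the RefSeq annotation of GRCm38.p6, Psmb9 (chromosome 17, 34182030 to 34187330) and Psmb8 (34198195 to 34201454) are separated by 10864 bases of the MHC class II region that also holds Tap1, while Psme1 (chromosome 14, 55578494 to 55581527) and Psme2 (55587440 to 55591101) are separated by 5912 bases. Psmb10 lies on chromosome 8. The 46 genes are spread over 16 chromosomes, with at most 9 on one of them (chromosome 11).

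Promoter windows of 250 bases before to 50 after the annotated start were available from RefSeq (GRCm38.p6) for 39 of the 46 genes. The windows are printed for both genes of the chymotrypsin-like and caspase-like pairs, which moved in opposite directions, for Psme1, and for Psmd12 and Psme3, 2 genes that rose with the core. Each printed window holds at least 1 motif match and was chosen after the matches were seen. The windows of Psmb10 and Psmd1 held 0 matches and are not printed, and some further members, Psme2 among them, had no match either. The printed windows read 5′ to 3′ along the gene's strand, and capitals mark every match, on either strand, to one of 5 motifs: GAAANNGAAA (of the kind bound by interferon regulatory factors), TTCNNNGAA (gamma-activated sequence), TGACNNNGC (antioxidant response element), CCGGAAG (ETS factors) and CCAAT (NF-Y).
Psmb8, β5i, chr17:34197945-34198244, plus strand: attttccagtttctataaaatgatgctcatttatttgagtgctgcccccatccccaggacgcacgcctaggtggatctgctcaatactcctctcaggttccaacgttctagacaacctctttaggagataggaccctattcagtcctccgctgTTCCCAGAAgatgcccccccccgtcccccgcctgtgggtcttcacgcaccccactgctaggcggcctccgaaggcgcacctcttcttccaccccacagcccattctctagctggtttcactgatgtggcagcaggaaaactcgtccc
Psmb5, β5, chr14:54617946-54618245, minus strand: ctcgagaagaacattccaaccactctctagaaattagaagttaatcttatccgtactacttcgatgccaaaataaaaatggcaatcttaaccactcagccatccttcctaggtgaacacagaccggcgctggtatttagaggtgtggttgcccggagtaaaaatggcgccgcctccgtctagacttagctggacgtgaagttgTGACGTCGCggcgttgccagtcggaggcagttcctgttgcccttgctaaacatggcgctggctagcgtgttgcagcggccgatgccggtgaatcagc
Psmb9, β1i, chr17:34187281-34187580, minus strand: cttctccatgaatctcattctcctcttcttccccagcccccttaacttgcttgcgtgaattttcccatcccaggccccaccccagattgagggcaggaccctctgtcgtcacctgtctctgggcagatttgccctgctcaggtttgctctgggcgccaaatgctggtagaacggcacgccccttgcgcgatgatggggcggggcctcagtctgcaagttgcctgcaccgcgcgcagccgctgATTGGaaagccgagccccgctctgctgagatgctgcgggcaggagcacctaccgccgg
Psmb6, β1, chr11:70525107-70525406, plus strand: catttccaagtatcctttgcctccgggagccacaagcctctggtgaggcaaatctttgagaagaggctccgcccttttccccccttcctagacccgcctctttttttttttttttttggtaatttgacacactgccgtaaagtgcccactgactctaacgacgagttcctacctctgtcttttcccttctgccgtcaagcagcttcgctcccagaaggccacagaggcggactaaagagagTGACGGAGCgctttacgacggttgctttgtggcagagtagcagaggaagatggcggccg
Psme1, PA28α, chr14:55578244-55578543, plus strand: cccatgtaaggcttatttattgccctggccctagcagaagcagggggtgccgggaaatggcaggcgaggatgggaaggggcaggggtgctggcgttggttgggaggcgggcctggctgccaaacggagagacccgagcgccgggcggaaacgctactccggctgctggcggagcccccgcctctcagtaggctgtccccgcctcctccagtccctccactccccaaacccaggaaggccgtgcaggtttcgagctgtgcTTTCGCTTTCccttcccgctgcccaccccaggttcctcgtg
Psmd12, Rpn5, chr11:107479278-107479577, plus strand: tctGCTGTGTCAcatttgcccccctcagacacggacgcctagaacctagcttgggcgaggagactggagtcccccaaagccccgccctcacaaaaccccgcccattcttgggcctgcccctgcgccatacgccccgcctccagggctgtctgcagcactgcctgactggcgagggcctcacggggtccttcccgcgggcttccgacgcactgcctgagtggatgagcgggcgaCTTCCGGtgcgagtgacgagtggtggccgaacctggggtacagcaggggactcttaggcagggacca
Psme3, PA28γ, chr11:101315963-101316262, plus strand: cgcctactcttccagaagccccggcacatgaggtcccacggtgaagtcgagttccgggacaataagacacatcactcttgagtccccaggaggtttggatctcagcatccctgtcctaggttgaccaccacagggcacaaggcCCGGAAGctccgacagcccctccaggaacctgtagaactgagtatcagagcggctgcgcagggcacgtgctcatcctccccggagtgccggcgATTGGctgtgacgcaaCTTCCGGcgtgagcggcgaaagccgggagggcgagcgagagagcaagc

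Positions count from 1 at the annotated start on which each window was placed. The capitals of Psmb8 are a TTCNNNGAA match starting at -97 and those of Psme1 a GAAANNGAAA match starting at 10. Those of Psmb9 are a CCAAT match at -8, and those of Psmb5 and Psmb6 TGACNNNGC matches at -47 and -9. The Psmb6 window was placed on a start inside the gene, whose first annotated base is 70525324, so its match lies within the gene. The CCGGAAG matches of Psmd12 and Psme3 start at -17 and at -107 and 3, next to a TGACNNNGC match at -247 in Psmd12 and a CCAAT match at -14 in Psme3. CCGGAAG was present in 15 of 39 members (38.5%), among them 10 of the 25 core and 19S genes, and in none of the 5 immunoproteasome genes, where 21.6% of the 8404 genes of the first table with a window and 9.93% of all 27025 genes had one. TGACNNNGC matched 15.4% of the members and 17% of the genes of the first table, CCAAT 35.9% and 43.6%, GAAANNGAAA 12.8% and 3.76%, and TTCNNNGAA 7.69% and 8.5%. The 5 members with a GAAANNGAAA match, only 1 of them of the immunoproteasome class, were Psmb3, Psmd4, Psmd9, Psmg4 and Psme1. A match is a description of the letters, and binding was not measured.

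The second comparison asked what blocking p110δ during activation changed. With PI3Kdi, 1 of the 46 genes was higher and 2 were lower than in TCR activated cells, against 9.35% and 8.19% of all genes tested. None passed 2-fold in either direction, where 3.04% of all genes were higher and 2.10% lower past that limit. The median log2 fold change of the 46 was -0.06, and that of all genes was -0.01. The 3 called genes were Psmb10, Psmb9 and Psmb6, and which genes passed changed when single libraries were left out.

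Psmb10 (β2i) had 27.9, 29.9 and 33.2 FPKM in TCR activated and 18.9, 18.4 and 25.6 FPKM in PI3Kdi libraries, so that it went further down from its naïve level (log2 fold change -0.54, SE 0.13, adjusted p = 0.0134). Psmb9 (β1i) moved the other way, from 64.2, 70.7 and 74.8 to 89.5, 92.1 and 96.2 FPKM (log2 fold change 0.41, SE 0.11, adjusted p = 0.0229), which left it below every naïve library. Psmb8 (β5i) had 112, 114 and 161 FPKM with PI3Kdi and did not pass (log2 fold change -0.17, SE 0.15, adjusted p = 0.492). With the inhibitor the groups did not overlap for Psmb9 and Psmb10, in opposite directions, and overlapped for Psmb8. Over all genes, 18.1% were higher and 18.6% lower without overlap, and differences between the 3 inducible subunits were not tested. Psmb6 (β1) was the other gene called lower, with 151, 163 and 163 FPKM and all 3 libraries below the TCR activated ones (log2 fold change -0.26, SE 0.08, adjusted p = 0.0493). With the replicate number as a block its adjusted p was 0.0514, which leaves 1 gene lower. The share of Psmb9 in its pair was 36.8 ± 0.667% with PI3Kdi (SD, n = 3), above all 3 TCR activated libraries, and that of Psmb10 was 10.7 ± 1.63%.

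These calls were small and mostly lost when a replicate was left out, which also leaves fewer libraries to test. Without replicates 1, 2 and 3 the log2 fold change of Psmb9 was 0.37, 0.42 and 0.43. That of Psmb10 was -0.54 without replicate 1 and -0.46 without replicate 2. Psmb9 did not pass when any 1 replicate number was left out (adjusted p from 0.0766 to 0.116), nor without TCR replicate 1 alone (0.0512). Psmb10 was lost without replicate 1 (0.0677) and without replicate 2 (0.190), and kept without TCR replicate 1 alone. Without that library, 0 genes were higher and 5 lower, namely Psmb10, Psmc1, Psmc6, Psmd11 and Psmd12. The share of all genes called in that fit is not given here, so these counts have no background to be read against.

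The rest of the complex showed small shifts. All 3 PI3Kdi libraries were below all 3 TCR activated libraries for 12 of the 46 genes and above them for 1, where 18.6% of all genes were lower and 18.1% higher without overlap, and 8 of the 12 belong to the 19S particle. None of the 17 genes of the 19S particle passed the limma test. Their log2 fold changes had a median of -0.14 and ran from -0.24 (Psmc1) to 0.04 (Psmd13). For Psmd7 (Rpn8), which rose most of them on activation, PI3Kdi libraries had 181, 189.9 and 191 FPKM, and the 95% interval of the ratio to TCR activated cells was 0.800 to 1.00. For the alpha subunit Psma5, at 147, 153 and 156 FPKM, the interval was 0.795 to 1.20. Psme3 (PA28γ), with 233, 232 and 237 FPKM, was lower without overlap but missed the threshold (log2 fold change -0.30, SE 0.10, adjusted p = 0.0603), and passed it in a fit of only these 2 groups (adjusted p = 0.0213). Psme1, Psme2 and Psme4, with 297, 309 and 357, 204, 215 and 279 and 27.2, 27.7 and 25.98 FPKM, all overlapped. None of the 7 assembly factors passed.

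Against naïve cells, the PI3Kdi cells had 39 genes higher and 3 lower, where 40.1% and 39.0% of all genes were. This comparison shares the naïve libraries with the first one. The genes lower than in naïve cells were Psmb8, Psmb9 and Psmb10, and Psme4 was higher here (log2 fold change 0.39, SE 0.12, adjusted p = 0.0101), a call that was lost without replicate 2 or 3.

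The third comparison asked what the last 24 h without IL-2 changed in CTL. No gene of the 46 was higher and 40 were lower than in CTL with IL-2, against 35.2% and 36.6% of all genes tested. Past 2-fold, none were higher and 21 lower, where 14.3% and 13.9% of all genes were. The median log2 fold change was -0.95, and that of all genes was 0.00. At an unadjusted p under 0.05 no gene was higher either, as only Psme4 had a value above 0.

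In the 20S core, 13 of 14 genes fell, 8 of them past 2-fold. Psmb6 (β1) fell most, from 120.4, 156 and 167 FPKM with IL-2 to 56.1, 50.6 and 51.9 FPKM without (log2 fold change -1.47, SE 0.12, adjusted p = 4.32e-06). Psmb2 (β4, a non-catalytic position) went from 261, 324 and 331 to 115, 109 and 110.0 FPKM (log2 fold change -1.45, SE 0.10, adjusted p = 1.71e-06), Psmb7 (β2) from 172, 153 and 154 to 74.3, 62.6 and 70.2 FPKM, and Psmb5 (β5) from 92.8, 85.6 and 84.5 to 42.8, 37.3 and 34.4 FPKM. The fold changes of the constitutive catalytic subunits β1, β2 and β5 were thus 0.362, 0.432 and 0.435. Psmb1 (β6) again moved least, from 212, 200.2 and 199.9 to 183, 179 and 188 FPKM, without overlap but short of the threshold (log2 fold change -0.15, SE 0.07, adjusted p = 0.0718).

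The alpha subunits fell within a narrow range of log2 fold changes, from -1.17 (Psma5) to -0.82 (Psma6). Psma5 went from 138, 114 and 128 to 54.4, 57.2 and 56.7 FPKM and Psma7 (α4) from 239, 217 and 223 to 105, 98.7 and 100.0 FPKM. Psma4 (α3, whose tail helps to close the gate) went from 200.1, 205 and 233 to 103, 93.5 and 94 FPKM. For Psma3 (α7) the values were 129.9, 110.4 and 115 with IL-2 and 62.98, 57.2 and 55.5 without. These 4 genes passed 2-fold, and no library overlapped for any alpha gene. How many of all genes had no overlap on withdrawal was not counted.

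In the 19S particle, 16 of 17 genes fell, 10 past 2-fold. Psmd1 (Rpn2) had the lowest log2 fold change of the 46, going from 102, 102 and 108 FPKM with IL-2 to 31.9, 30.1 and 24.2 FPKM without (log2 fold change -1.86, SE 0.11, adjusted p = 6.88e-07). This gene was also the one of the 19S base that rose most on activation. Among the ATPases, Psmc5 (Rpt6) went from 104, 102 and 105 to 46.5, 38.6 and 38.8 FPKM, Psmc4 (Rpt3) from 109, 122 and 128 to 53.9, 47 and 47.9 FPKM and Psmc1 (Rpt2) from 151, 148 and 154 to 72.96, 68.6 and 63.04 FPKM. Psmc2 (Rpt1) went from 89.9, 97.6 and 105 to 50.2, 44.05 and 44.1 FPKM, and all 4 passed 2-fold, while Psmc3 and Psmc6 fell by less. Psmd4 (Rpn10) did not pass: its 103, 95.8 and 98.3 FPKM with IL-2 compared with 88.8, 85.9 and 92.1 FPKM without (log2 fold change -0.15, SE 0.07, adjusted p = 0.0761).

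Of the lid, 5 genes passed 2-fold. Psmd3 (Rpn3) went from 124, 156 and 149 to 48.4, 51.1 and 48.7 FPKM (log2 fold change -1.53, SE 0.09, adjusted p = 9.92e-07) and Psmd12 (Rpn5) from 93.3, 87.7 and 99.7 to 37.8, 32.01 and 33.1 FPKM (log2 fold change -1.45, SE 0.09, adjusted p = 9.77e-07). Psmd11 (Rpn6), whose level is known to limit proteasome assembly in other cells, went from 84.95, 96.04 and 109 to 38.7, 37.3 and 39.7 FPKM. Psmd7 (Rpn8) and Psmd14 (Rpn11), the deubiquitinating pair, had 96.5, 107 and 114 and 121, 106 and 115 FPKM with IL-2. Without IL-2 their values were 46.8, 41.4 and 40.1 and 59.4, 53.9 and 44.5 FPKM. No library without IL-2 reached a library with IL-2 for any of these 5 genes, a property whose share over all genes was not counted. Psmd8 fell least of the lid, by 0.66 on the log2 scale.

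Of the immunoproteasome class, 4 of 5 genes fell, none past 2-fold, with a median log2 fold change of -0.40. Psmb8 (β5i) had 409.6, 408 and 412 FPKM with IL-2 and 310.2, 303 and 317 FPKM without (log2 fold change -0.40, SE 0.07, adjusted p = 0.000639). Psmb10 (β2i) went from 129, 150.1 and 139 to 91.9, 95.8 and 98.05 FPKM (log2 fold change -0.54, SE 0.08, adjusted p = 0.000203), and Psmb9 (β1i), at 189, 215 and 198 and 178, 184 and 203 FPKM, overlapped (log2 fold change -0.09, SE 0.08, adjusted p = 0.351). Within the pairs the inducible share without IL-2 was 89.0 ± 1.17% for Psmb8, 78.0 ± 1.80% for Psmb9 and 58.0 ± 2.60% for Psmb10 (SD, n = 3). Each of these shares lay above all 3 libraries with IL-2. Differences between the genes of a pair were not tested.

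**Figure D4:**
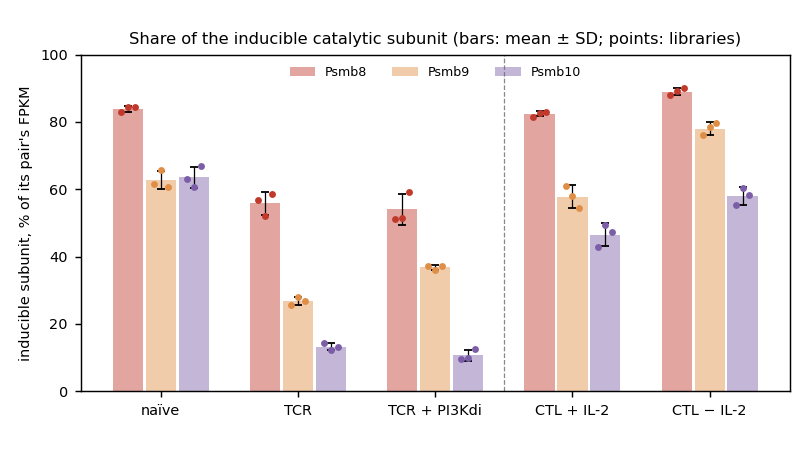
Inducible subunit as a percentage of the FPKM of its catalytic pair (Psmb8 of Psmb8 and Psmb5, Psmb9 of Psmb9 and Psmb6, Psmb10 of Psmb10 and Psmb7) in each group, with the mean and SD of 3 libraries and the libraries as points. Shares were lower in both activated groups of the first table than in naïve cells, with Psmb10 at 13.3% and 10.7%, and higher in CTL without IL-2 than with it.

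Of the activators, Psme3 (PA28γ) went from 149.7, 197 and 193 to 60.7, 59.7 and 52.2 FPKM (log2 fold change -1.63, SE 0.11, adjusted p = 2.01e-06). Psme2 (PA28β) fell from 301, 256 and 264 to 168, 153 and 147 FPKM (log2 fold change -0.81, SE 0.09, adjusted p = 3.24e-05) and Psme1 (PA28α) from 334, 343 and 348 to 272, 273 and 283 FPKM (log2 fold change -0.31, SE 0.07, adjusted p = 0.00313). The ratio of Psme1 to Psme2, the partners of the PA28 ring, was 1.26 ± 0.128 with IL-2 and 1.77 ± 0.149 without (SD, n = 3), with no overlap of the libraries. Psme4 (PA200), with 27.5, 20.6 and 20.8 and 25.1, 25.7 and 25.1 FPKM, overlapped and was the only gene of the 46 with a log2 fold change above 0 (log2 fold change 0.15, SE 0.12, adjusted p = 0.26). It passed as higher when replicate 1 was left out (0.29, adjusted p = 0.0231), so that 1 gene was then higher.

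Of the assembly factors, 5 of 7 fell, and Psmg1 (PAC1) alone passed 2-fold, from 24.1, 34.5 and 33.7 to 12.8, 12.6 and 11.5 FPKM (log2 fold change -1.30, SE 0.14, adjusted p = 2.38e-05). Its dimer partner Psmg2 (PAC2) had 31.2, 27.1 and 22.8 FPKM with IL-2 and 28.2, 25.5 and 24.1 FPKM without, and overlapped (log2 fold change -0.05, SE 0.12, adjusted p = 0.725). Psmg3, which rose most of this class on activation, went from 20.98, 16.9 and 15.8 to 13.8, 13.3 and 10.7 FPKM (log2 fold change -0.50, SE 0.14, adjusted p = 0.00864). Psmd10 (gankyrin) missed the threshold (log2 fold change -0.24, SE 0.10, adjusted p = 0.0523), and passed it with the replicate number as a block (adjusted p = 0.0479). Psmc3ip fell from 12.1, 13.01 and 13 to 4.62, 4.23 and 3.77 FPKM (log2 fold change -1.57, SE 0.11, adjusted p = 2.25e-06).

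The first and the third comparison share no library, so their values can be set side by side. All 31 genes of the 20S core and 19S had a log2 fold change above 0 on activation and below 0 on IL-2 withdrawal, as did 39 of the 46 matched genes and 38.8% of the 10637 genes in both tables. Over the 31 genes the 2 log2 fold changes had a Pearson r of -0.79 and a Spearman rho of -0.67, over the 46 genes a Pearson r of -0.64, and over all 10637 genes of -0.64. As genes of a library share its depth and are no independent replicates, these coefficients over genes are a description with no test. The genes that rose least on activation, Psmb1 and Psmd4, were also those of the core and 19S that fell least on withdrawal.

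**Figure D5:**
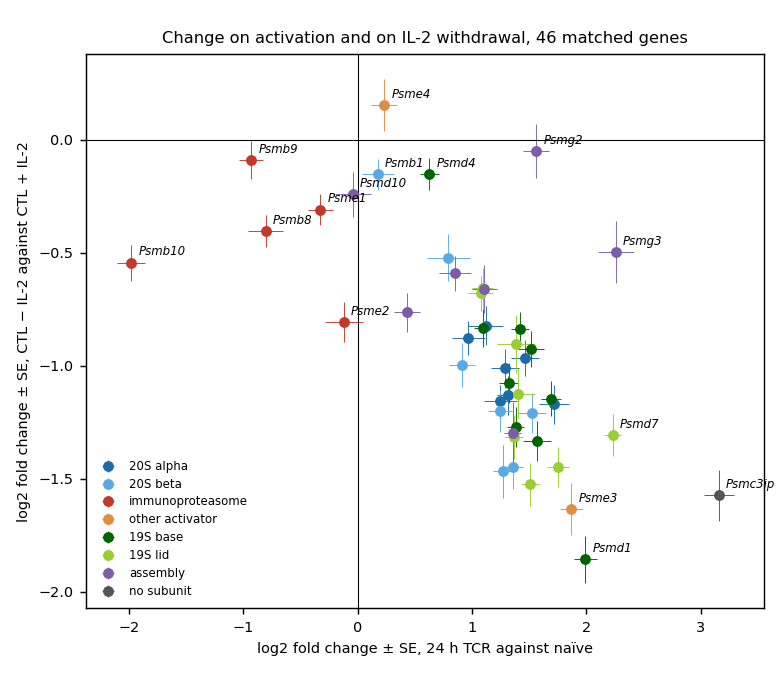
Log2 fold change of each matched gene on TCR activation (horizontal) against that on IL-2 withdrawal from CTL (vertical), with standard errors, coloured by class. The core and 19S genes lie at the lower right together with Psme3 and Psmc3ip, and the 5 immunoproteasome genes lie at the lower left.

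The other genes of the pathway were counted in lists. Of 20 associated factors with a row, 15 rose and 1 fell on activation, none rose and 18 fell on IL-2 withdrawal, and with PI3Kdi none rose and 1, the nuclear import factor Akirin2, fell. Over all genes, 40.9% rose and 39.8% fell on activation, 35.2% rose and 36.6% fell on withdrawal, and 9.35% rose and 8.19% fell with PI3Kdi. The median log2 fold changes were 0.69 on activation, -0.85 on withdrawal and -0.06 with PI3Kdi, beside 0.01, 0.00 and -0.01 over all genes. On activation, the 20S maturation factor Pomp rose 2.57-fold and the 19S deubiquitinase Uchl5 5.85-fold. The AAA ATPase Vcp, which extracts ubiquitinated substrates, rose 2.85-fold. Ubb, which encodes polyubiquitin, did not pass in any of these 3 comparisons, with log2 fold changes between -0.18 and 0.17. Against naïve cells, Ubb was lower with PI3Kdi (log2 fold change -0.23, adjusted p = 0.0447 in the limma fit).

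Of 7 regulators of proteasome genes, 2 rose and 5 fell on activation, where 40.9% of all genes rose and 39.8% fell. Nfe2l1, the factor that induces core and 19S genes when proteasomes are short, rose (log2 fold change 0.50, adjusted p = 0.00134). Ddi2 also rose, with a log2 fold change of 0.70, while Ngly1 fell, with one of -1.42. Irf1 and Nlrc5, which induce MHC class I genes, fell by log2 fold changes of -1.44 and -1.77. With PI3Kdi, 5 of the 7 were higher than in TCR activated cells and 1 lower, beside 9.35% and 8.19% of all genes. Among them Irf1 changed by 0.68, Nlrc5 by 0.63 and Nfe2l1 by -0.50 on the log2 scale. Of these, Nfe2l1, Irf1 and Nlrc5 had 39.5 ± 6.71, 35.7 ± 3.21 and 19.8 ± 2.92 FPKM (SD, n = 3) in the TCR activated group. Nfe2l1 averaged 27.7 FPKM with PI3Kdi and 27.6 FPKM in naïve cells. Between the same 2 groups, 30 of the 31 genes of the 20S core and 19S were higher with PI3Kdi, as were 40.1% of all genes. The part of Nfe2l1 and the other regulators in the changes of proteasome genes was not tested. On IL-2 withdrawal 3 of the 7 regulators were higher and 2 lower, beside 35.2% and 36.6% of all genes, and Nfe2l1 fell (log2 fold change -0.87, adjusted p = 2.11e-05).

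The 4 peptide loading genes, which act after the proteasome in antigen presentation, all fell on activation, where 39.8% of all genes fell, with Tap2 at a log2 fold change of -1.73 and Tapbp at -2.34. With PI3Kdi 2 of them, Tapbp and Erap1, were higher than in TCR activated cells, as were 9.35% of all genes. On IL-2 withdrawal Tap1 and Tapbp were higher, by 0.42 and 0.18 on the log2 scale, Erap1 was lower, and Tap2 did not pass, beside 35.2% of all genes higher and 36.6% lower.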

How the data were processed

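RNA sequencing of 15 libraries of P14 CD8+ T cells, in 5 groups of 3, was taken from 2 tables. The authors deposited both as FPKM. Per their methods and processing notes, reads of a stranded mRNA library were aligned to mm10 with STAR 2.5.2b, counted per gene with Subread 1.5.1, filtered for expression, scaled by the TMM method and divided by exon length. The same steps were assumed for the CTL table. Values carry 2 decimals, read totals per library are not given in the sources used here, and 1039 blank cells of the first table, none in a proteasome gene, were read as 0. The limma-voom fit of the methods needs counts and was not repeated.

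Samples were grouped by title. In CTL with IL-2, the treatment labels of replicates 2 and 3 give interleukins other than IL-2. log2(FPKM + 0.1) of all genes was fitted with limma 3.58.1 in R 4.3.3, with an intensity trend, 1 fit per table and Benjamini-Hochberg adjustment of the p-values across the genes of that table. Fold changes are on this log2 scale, which slightly understates the change of low genes. Genes were called at an adjusted p under 0.05, and past 2-fold above 2 or below 0.5. The fit was tested on simulated data. Other values were computed in Python 3.11.15 with numpy 2.4.6, pandas 2.3.3 and scipy 1.17.1, and plots drawn with matplotlib 3.10.9.

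The main fit had no replicate term. As each pool of the first table was split between its groups, replicate numbers were taken to pair libraries in the block alternative. Deviations of same-numbered libraries from their group means had a Pearson r of 0.203 to 0.506 for TCR and PI3Kdi. It was 0.123 to 0.257 for the CTL groups and -0.181 to 0.226 for naïve and TCR. For libraries of unlike number r was -0.453 to 0.191, -0.201 to 0.0912 and -0.306 to 0.378 in the same order. Between naïve and TCR libraries the same number thus brought no greater likeness.

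The genes, classes and pathway lists were chosen with earlier results of these data known. Values per library are given for the 3 catalytic pairs, Psme1 to Psme4, Psmc3ip, genes past 2-fold with PI3Kdi or after IL-2 withdrawal, and the highest and lowest of each class on activation, and other genes named were chosen after their values were seen. Promoter windows come from RefSeq for GRCm38.p6, and none was given for Psmb1, Psmb2, Psmb7, Psmc3, Psmd3, Psmd7 and Psmg2. Alternatives were a pseudocount of 1 or 0.01, median scaling, only genes whose FPKM averaged 1 or more, the replicate block, no intensity trend, only the groups compared, each replicate left out and, added after seeing the data, TCR replicate 1 left out. Some genes of the pathway lists are counted but not reported here by name.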

Additional observations from a re-analysis of the deposited data

How the results depend on the processing

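The counts of genes called on activation, on IL-2 withdrawal and with PI3Kdi against naïve cells stayed within 1.5 times of the values given under every pseudocount, filter, scaling, block and choice of groups tried. The number of genes lower with PI3Kdi than in TCR activated cells went from 2 to 1 with a pseudocount of 0.01, with only genes of a mean FPKM of at least 1, with median scaling of the libraries, without the intensity trend and with the replicate block. In each case Psmb6 was lost, with adjusted p between 0.0507 and 0.0914 in limma. The replicate block changed 1 other call, as Psmd10 then passed as lower on IL-2 withdrawal (adjusted p = 0.0479).

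Leaving out 1 library or 1 replicate number gave 0 to 0 genes higher with PI3Kdi than in TCR activated cells and 0 to 5 lower. The highest count came without TCR replicate 1 alone, an alternative chosen after seeing the data. Shares of all genes called in the fits with libraries left out are not given here. Genes lower past 2-fold numbered 1 to 2 on activation and 1 to 2 for PI3Kdi against naïve cells, with 2 without replicate 3. Genes higher on IL-2 withdrawal numbered 0 to 1, with 1 (Psme4) without replicate 1, and Psme1 was then lost without replicate 2 (adjusted p = 0.0621). Taken from the mean log2 fold change of its genes, the ratio of PI3Kdi to TCR activated cells was 0.998 for the immunoproteasome class, against 1.07 from summed FPKM, and 0.932 for the inducible catalytic subunits, against 0.992. No gene that passed the test changed sign under an alternative. Some that did not pass, such as Psmd10, Psme2 and Psmb1 on activation, changed sign when 1 replicate was left out, and some class ratios of PI3Kdi to TCR near 1 crossed 1, the immunoproteasome ratio among them. Of 1353 values for single genes under the alternatives, 1321 kept their call.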
